A study of Mus musculus with 20 samples.

Results

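Eph receptors and their ligands, the ephrins, were followed by 10 genes in single wells of the developing and adult mouse habenula. The members were the table rows with the symbols Epha3, Epha4, Epha5, Epha7, Epha8, Ephb1, Ephb2, Efna5, Efnb2 and Efnb3, which are 10 of 37994 genes in the developmental series and 10 of 36104 in the set of left and right plates. All 10 rows were present in both, and all 10 passed the filter on low counts in each comparison. The single-cell libraries were made on plates with Cel-seq2, a method that reads the 3' part of each transcript and counts transcripts by unique molecular identifiers (UMIs). The developmental series came from the habenula of mice of the Brn3a-tauLacZ line, in which a tau-LacZ reporter sits at Brn3a, the older name of the transcription factor gene Pou4f1. Embryonic days (E) 11, 13, 15 and 18, postnatal days (P) 4 and 7, and adults gave 2 plates each, and E12 gave 1, which was described but not tested between stages. A separate E18 set was made from C57BL/6 mice: the left habenula filled 2 plates, the right 2, and both sides together 1, whose title gives E1 where its other labels give E18. No treatment is given for any group. The sources used here do not give the genotype at the reporter, the sex, the sort gate or the age of the adults. Nothing says that plates of a stage came from separate animals, so p-values measure the spread between plates, which may be technical. Each sequencing run held 5 plates, but which ones is not given, so run and stage cannot be told apart.

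Eph receptors are receptor tyrosine kinases, and ephrins are held in the membrane of the neighbouring cell, so that signalling needs contact between cells. Ephrins of the A class are anchored by a lipid and bind mainly EphA receptors. Those of the B class span the membrane and bind mainly EphB receptors and Epha4, and they also signal back into the cell that carries them. In the nervous system this contact is known for repelling growth cones, keeping cell groups apart at borders, setting topographic maps and shaping synapses. The habenula is an epithalamic relay with a medial and a lateral division, whose axons leave together in the fasciculus retroflexus. All levels below are counts per 1e6 counts (CPM), summed over the kept wells of a plate. Since 3' tags are not scaled by transcript length, levels are compared within a gene and not between genes.

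Totals behind the levels ranged from 758697 counts on adult plate 1 to 7760372 on P7 plate 1, and median counts per kept well from 5057 on adult plate 1 to 29096 on left plate 2. The share of wells kept ran from 14.1% to 90.1%, and adult plate 1 left 56 wells, with a median mitochondrial share of 11.9%, the highest of the 20 plates. Plates of a stage did not always hold the same cells. On E18 plate 1, 28.1% of kept wells had a Pou4f1 UMI, against 85.5% on E18 plate 2, and the progenitor markers summed to 4223 CPM against 314 CPM. On E13 plate 2 intermediate progenitor-like wells made up 58.4% of kept wells, against 16.3% on E13 plate 1. In the adult, 35.7% and 18.7% of kept wells were oligodendrocyte-like. Fewer cells of a type and less RNA per cell cannot be told apart in a plate's sum. Barcodes are well numbers and are reused, with 380 well numbers found on all 20 plates, so a shared number marks no shared cell.

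In GENCODE M21 (GRCm38), Epha3 (ENSMUSG00000052504) spans chr16:63543534-63864175, Epha4 (ENSMUSG00000026235) chr1:77367185-77515088, Epha5 (ENSMUSG00000029245) chr5:84054761-84417382 and Epha8 (ENSMUSG00000028661) chr4:136929419-136956816, all on the minus strand. Epha7 (ENSMUSG00000028289) spans chr4:28813131-28967499 on the plus strand. Ephb1 (ENSMUSG00000032537) lies at chr9:101922128-102354693, Ephb2 (ENSMUSG00000028664) at chr4:136647539-136835988, Efna5 (ENSMUSG00000048915) at chr17:62604184-62881317, Efnb2 (ENSMUSG00000001300) at chr8:8617434-8661242 and Efnb3 (ENSMUSG00000003934) at chr11:69554092-69560205, all on the minus strand. Epha3, Epha4, Ephb1 and Efnb2 overlap 1, 1, 3 and 3 other genes on their own strand, so part of their counts is uncertain. Since the use of strand in counting is not known, the same holds for Epha5, Epha7 and Ephb1, which overlap 1, 1 and 6 genes on the other strand.

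The promoter windows of Ephb2 and Efnb2 are shown because these are the members whose levels fell most from E11 to P7. Each runs from 250 bases before to 50 bases after the start in RefSeq (GRCm38.p6), 5' to 3' along the gene, and 9 of the 10 members had an entry, Efnb3 being the exception. Capitals mark the GC box GGGCGG and the CCAAT box, each searched on both strands, so that ATTGG is a CCAAT on the other strand. Ephb2 lies at chr4:136835963-136836262 on the minus strand and Efnb2 at chr8:8661193-8661492 on the minus strand.
Ephb2: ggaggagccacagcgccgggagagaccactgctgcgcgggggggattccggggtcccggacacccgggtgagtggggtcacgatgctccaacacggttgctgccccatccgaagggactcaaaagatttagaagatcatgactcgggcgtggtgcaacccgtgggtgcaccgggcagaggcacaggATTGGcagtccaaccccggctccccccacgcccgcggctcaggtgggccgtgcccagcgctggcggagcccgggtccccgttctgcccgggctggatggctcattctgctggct
Efnb2: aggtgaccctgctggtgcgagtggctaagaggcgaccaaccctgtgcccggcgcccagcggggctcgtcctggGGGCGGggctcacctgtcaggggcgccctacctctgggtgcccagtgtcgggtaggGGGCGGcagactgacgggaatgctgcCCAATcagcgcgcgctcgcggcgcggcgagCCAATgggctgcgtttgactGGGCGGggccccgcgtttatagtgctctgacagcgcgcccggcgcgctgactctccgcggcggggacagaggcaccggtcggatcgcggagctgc
The Ephb2 window held 0 GGGCGG and 1 CCAAT, and the Efnb2 window 3 GGGCGG and 2 CCAAT, where 35.7% and 37.4% of 32851 mouse promoter windows held at least 1 of each. GC content was 68.7% for Ephb2 and 72.3% for Efnb2, above the 52.7% median of all windows. The TATA motif TATAAA, also searched on both strands, was held by 13.6% of windows. It was found once in Efnb2, as TTTATA on the printed strand, and not in Ephb2. These matches describe letters and not factor binding.

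Of the 10 members, 8 differed between the 7 tested stages, where 46.4% of 17453 genes did (edgeR's quasi-likelihood test with Benjamini-Hochberg adjustment over all genes, as throughout). Ephb1 and Epha8 did not pass (adjusted p = 0.667 and 0.75 in edgeR). The members that passed did not follow one course: Ephb2, Efna5 and Efnb2 were highest at E11 to E13, Epha3 and Epha7 peaked between E13 and E18, Epha5 was lowest at E18, Epha4 was lowest at P4, and Efnb3 was lowest at E11. The highest stage mean was 40.1 times the lowest for Ephb2, 31.2 times for Efnb2, 6.32 times for Epha5, 5.35 times for Efna5, 4.93 times for Epha7 and 3.30 times for Efnb3. For Epha3 it was 16.6 times and for Epha4 13.5 times. The highest mean of Epha3 rests on E13 plate 2, at 643 CPM against 208 CPM on the other plate. That of Epha4 rests on the single E12 plate, which was not in the test. The lowest means of Ephb2 (adult) and Efnb2 (P7) rest on 42 and 45 counts, each over 2 plates, so the sizes of their ratios are uncertain.

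**Figure D1:**
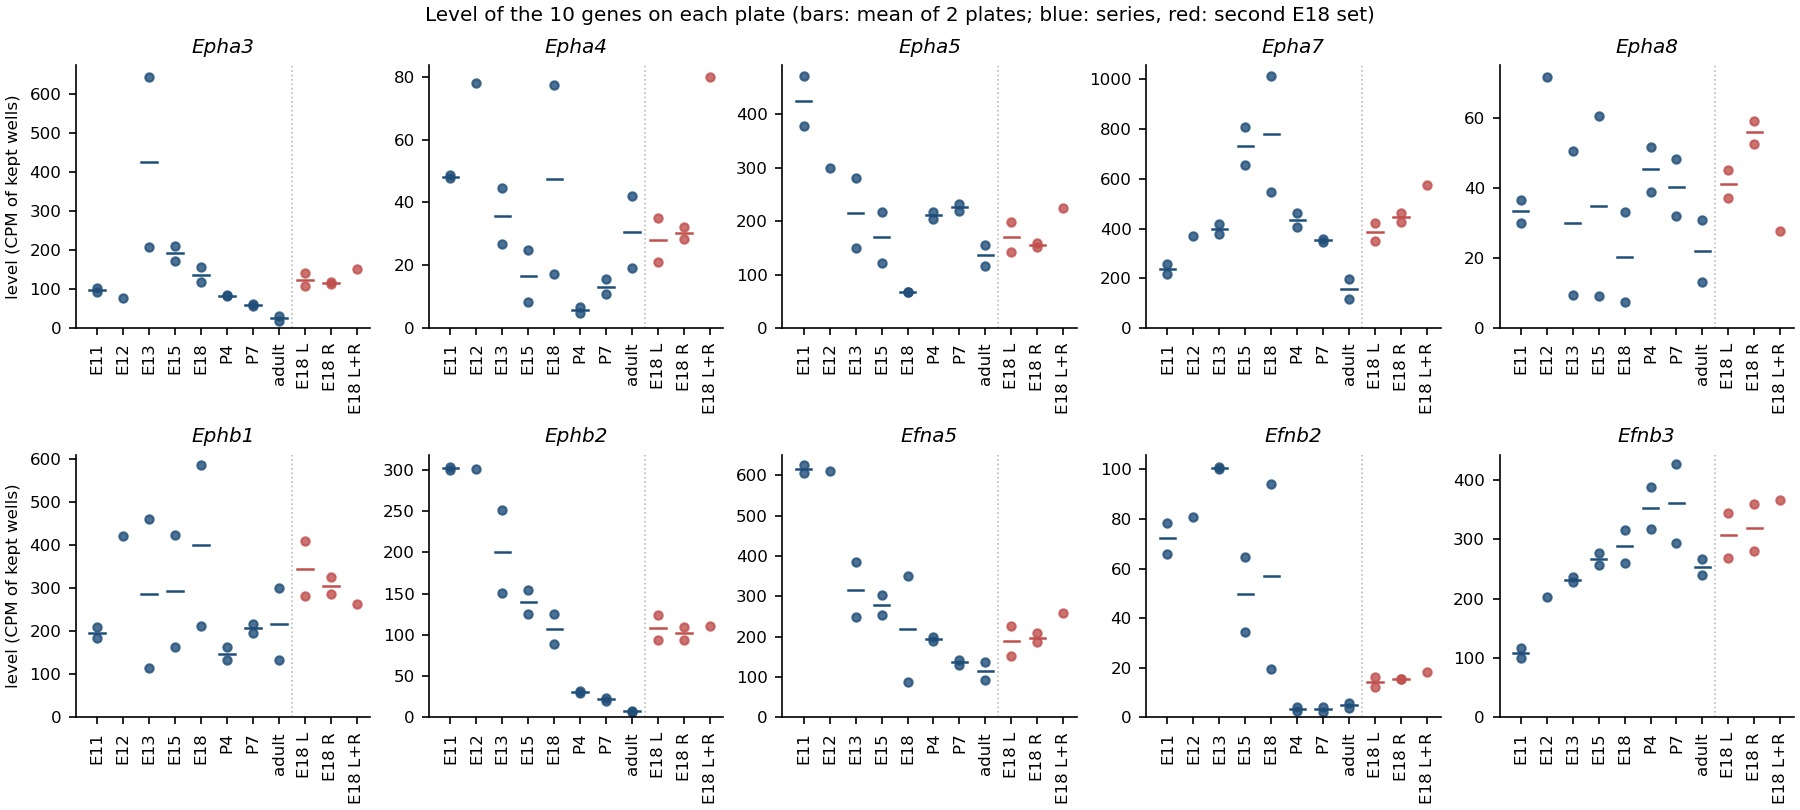
Level of each member on each plate of the developmental series and of the C57BL/6 set (x axis, stage, with L and R for left and right; y axis, CPM on a linear scale, own range per gene). Points are plates and bars the mean of 2 plates; mean Ephb2 falls from 302 CPM at E11 to 7.54 CPM in the adult, and the Efnb2 points of P4 to the adult reach at most 5.96 CPM.

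Epha3, a receptor for ephrin-A ligands including Efna5, measured, per plate, 91.7 and 103 CPM for E11, 77.4 for E12, 208 and 643 for E13, 211 and 173 for E15, 156 and 118 for E18, 85.0 and 81.8 for P4, 56.9 and 62.3 for P7, then 31.6 and 19.5 for adults. The order of stage means was E13, E15, E18, E11, P4, E12, P7 and adult, and from E15 on each stage's plates lay clear of those of the next. The high E13 mean, 426 ± 308 (SD, n = 2), came from 1 plate. From E11 to E13, Epha3 was the only called member, at log2 +1.96 (SE 0.39, edgeR adjusted p = 0.0377), where 1.45% of genes were called. Without E13 plate 2 the change was +0.95 with an adjusted p of 0.307 in edgeR, and it was also lost without E11 plate 1 (0.285) or E11 plate 2 (0.277). E13 plate 2 is also the plate of 58.4% intermediate progenitor-like wells, whose part in the change was not tested.

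Among clusters, Epha3 was highest in 1 of the 2 clusters of intermediate progenitor-like wells. Cluster 10 was led by Tbr1, Lhx1 and Fezf1, with Neurog2 and Eomes lower among its top genes. Its name rests on 5 intermediate progenitor markers. In its 147 wells Epha3 was at 1091 CPM, between 439.6 and 1541 CPM on the 6 plates with at least 10 such wells. On E13 plate 1 it was 1456 CPM and on E13 plate 2 1003 CPM, from 17 and 80 wells. The other intermediate progenitor-like cluster measured 121 CPM, the progenitor-like cluster 293 CPM, a medial habenula-like cluster (622 wells) 68.1 CPM, and an unnamed cluster marked by Col25a1, Oprm1 and Gpr151 (230 wells) 8.64 CPM, with 3.92 to 18.8 CPM on its plates. Member genes were left out of the genes clustered, and cluster levels are given as descriptions without a test.

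Epha4, which binds ephrins of both classes, measured, per plate, 48.7 and 47.8 CPM for E11, 78.0 for E12, 26.7 and 44.6 for E13, 25.0 and 8.32 for E15, 77.5 and 17.3 for E18, 6.79 and 4.76 for P4, 10.8 and 15.7 for P7, then 42.2 and 19.3 for adults. The E18 plates stood apart from each other, and the high one was the plate rich in progenitor markers. From E18 to P4 Epha4 fell by 2.81 on the log2 scale (SE 0.64, edgeR adjusted p = 0.0135), where 19.6% of genes were called. Without E18 plate 1 it was -1.47 and not called (adjusted p = 0.187 in edgeR), and the call also went without P4 plate 1 (0.0766) or P4 plate 2 (0.121). From E11 to P7 it fell by 1.82 (SE 0.59, edgeR adjusted p = 0.039; 28.6% of genes were called), a call lost without any 1 of the 4 plates (0.121 to 0.221). The order of stage means was E12, E11, E18, E13, adult, E15, P7 and P4. In that order only E12 above E11 and P7 above P4 were clear of each other. In order of age, E15 and E18 were the only neighbours whose plates overlapped.

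Epha5, an EphA receptor of nervous tissue, measured, per plate, 471 and 377 CPM for E11, 299 for E12, 280.3 and 149 for E13, 122 and 217 for E15, 67.1 and 67.1 for E18, 204 and 217 for P4, 232 and 219 for P7, then 116 and 156 for adults. Its E18 plates were the lowest of the series and did not overlap with those of any other stage. Epha5 rose from E18 to P4 by log2 1.87 (SE 0.36, edgeR adjusted p = 0.00682), with an adjusted p of 0.0523 without P4 plate 2. On the C57BL/6 plates of E18 the level was 142 to 225 CPM, above both E18 plates of the series; the sets came from different lines and were not compared by a test.

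Epha7, an EphA receptor studied for guidance of forebrain axons and for progenitors, measured, per plate, 256 and 216 CPM for E11, 372 for E12, 419.8 and 377 for E13, 809 and 656 for E15, 1012 and 546 for E18, 407 and 462 for P4, 358 and 347 for P7, then 118 and 199 for adults. E15 lay above P4 without overlap, and E11 above the adult. From P7 to the adult it fell by 1.25 (SE 0.30, edgeR adjusted p = 0.0474), where 3.58% of genes were called. The call did not hold without adult plate 1 (-0.97, adjusted p = 0.236 in edgeR), P7 plate 1 (0.255) or P7 plate 2 (0.234), nor in Pou4f1-positive wells alone (-1.03, adjusted p = 0.0903 in edgeR). The part of the mitochondrial share of adult plate 1 in the P7 to adult changes was not tested beyond leaving that plate out. Levels by cluster in the series ran from 13.7 CPM in oligodendrocyte-like cluster 19 to 1464 CPM in the 47 ependymal and choroid plexus-like wells. The latter held 2212 CPM in the 22 wells of E18 plate 1 and 486 CPM in the 17 of adult plate 2. The level was 1220.0 CPM in an unnamed cluster, marked by Tmem132c and Nfia, of which E18 plate 1 gave 169 of 203 wells.

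Epha8, an EphA receptor known from the midbrain, ranged over the series plates from 7.58 CPM on E18 plate 1 to 72.0 CPM at E12. Ordered by stage mean, its plates overlapped between all neighbours except E12 above P4. In order of age, E12 lay above E11 and E13, P4 above E18 and P7 above the adult without overlap. Single plates of a stage differed by several fold, as at E13 (50.6 and 9.56 CPM), E15 (9.23 and 60.6) and E18 (7.58 and 33.2). It was at 0 in the endothelial- and microglia-like clusters, oligodendrocyte-like cluster 19 and 1 of 2 astrocyte-like clusters, and at 129.8 CPM in a medial habenula-like cluster of the C57BL/6 set.

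Ephb1, an EphB receptor that steers retinal axons at the optic chiasm, measured, per plate, 184 and 209 CPM for E11, 420.1 for E12, 459 and 114 for E13, 163 and 422 for E15, 212 and 586 for E18, 164 and 132 for P4, 196 and 217 for P7, then 300.0 and 133 for adults. The 2 plates stood far apart at E13, E15 and E18. Ordered by stage mean, E11 above P4 was the single pair of neighbours without overlap. In order of age, E12 above E11, E18 above P4 and P7 above P4 did not overlap. Among clusters it was 468 CPM (442 to 480 on its plates) in a medial habenula-like cluster marked by Gad1, Cck and Calb2. In the large medial habenula-like cluster it was 90.7 CPM (81.9 to 102). The plates of these ranges, those with at least 10 wells of the cluster, were of P4 and P7 for both clusters.

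Ephb2, an EphB receptor that also acts at excitatory synapses, measured, per plate, 299.90 and 304 CPM for E11, 301 for E12, 251 and 151 for E13, 154 and 125 for E15, 125 and 88.9 for E18, 29.2 and 31.7 for P4, 20.4 and 23.2 for P7, then 7.91 and 7.16 for adults. Every later stage mean was lower than the one before, and E18, P4, P7 and the adult were clear of each other. From E11 to P7 Ephb2 fell by 3.74 (SE 0.27, edgeR adjusted p = 1.47e-05), where 28.6% of genes were called. From E18 to P4 it fell by 1.58 (SE 0.26, edgeR adjusted p = 0.00312). The further drop from P7 to the adult, -1.67 (SE 0.31, edgeR adjusted p = 0.0199), lost its call when any 1 of the 4 plates was left out (0.0934 to 0.162). The share of wells with an Ephb2 UMI went from 89.6% and 89.9% at E11 to 29.8% and 25.9% at P7, and, at 2000 UMIs a well, from 40.0% and 42.5% to 3.40% and 4.96%. The fall was also seen in Pou4f1-positive wells alone (-3.69 from E11 to P7, called in edgeR).

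Efna5, the ephrin-A ligand of the retinotectal map, measured, per plate, 625 and 605 CPM for E11, 611 for E12, 385 and 248 for E13, 253 and 304 for E15, 349.5 and 87.5 for E18, 189 and 199 for P4, 142 and 130.4 for P7, then 92.4 and 138 for adults. The E11 and E12 plates lay above all later ones. From E11 to P7 it fell by 2.12 (SE 0.47, edgeR adjusted p = 0.00664), with adjusted p-values of 0.0536 and 0.0641 without P7 plate 1 and P7 plate 2. In a cluster marked by L3mbtl4 and Vgf (121 wells) it was 31.5 CPM (18.5 to 37.1 on its plates).

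Efnb2, a transmembrane ligand known as a marker of arterial endothelium, measured, per plate, 78.4 and 65.8 CPM for E11, 80.9 for E12, 100 ± 0.707 (mean ± SD, n = 2) for E13, 64.6 and 34.5 for E15, 94.2 and 19.6 for E18, 4.07 and 2.45 for P4, 4.12 and 2.29 for P7, then 3.96 and 5.96 for adults. All embryonic plates lay above all postnatal ones. Efnb2 fell by 3.89 (SE 0.59, edgeR adjusted p = 0.00233) from E18 to P4, and by 2.46 (adjusted p = 0.0113) without E18 plate 1. From E11 to P7 it fell by 4.40 (SE 0.59, edgeR adjusted p = 0.000394), and by 5.34 in Pou4f1-positive wells alone. At 2000 UMIs a well, 16.7% and 8.55% of E11 wells had an Efnb2 UMI, against 1.08% and 0.635% at P4. In the endothelial-like cluster (58 wells) the level was 163 CPM, from 76 counts in 24.1% of the wells. In the 35 of these wells on adult plate 2, the single plate with at least 10, it was 59.6 CPM, from 7 counts.

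Efnb3, a transmembrane ligand of the midline that keeps corticospinal axons on their side, measured, per plate, 100.1 and 117 CPM for E11, 202 for E12, 227 and 237 for E13, 256 and 276 for E15, 315 and 260.1 for E18, 388 and 317 for P4, 294 and 426 for P7, then 267 and 239 for adults. Unlike the other members that passed in the E11 to P7 comparison, it was higher at P7 than at E11, by log2 1.78 (SE 0.22, edgeR adjusted p = 0.000263). In Pou4f1-positive wells alone the change was 1.83. At 2000 UMIs a well, 18.0% and 23.0% of wells at E11 and 44.4% and 54.3% at P7 had an Efnb3 UMI. In 27 microglia-like wells 22.2% had an Efnb3 UMI at a median of 6918 counts, and their level was 128 CPM, from 32 counts, above both E11 plates. Whether free RNA, doublets or expression gave these counts was not tested. The microglia-like wells were shallower than those of the E11 and P7 plates. The unthinned shares were 66.0% and 66.1% at E11 and 91.1% and 90.1% at P7. The Efnb3 level was 1398 CPM in oligodendrocyte-like cluster 19 (43 wells), with 1254 and 1506 CPM on the adult plates. The other oligodendrocyte-like cluster (58 wells), led by Gpr17 and Pdgfra, measured 62.1 CPM. In the Col25a1, Oprm1 and Gpr151 cluster the level was 567 CPM, with 487 to 664 CPM on its plates. In the 47 ependymal and choroid plexus-like wells Efnb3 was 1184 CPM, but 1509.6 CPM in the 22 wells of E18 plate 1 and 135 CPM in the 17 of adult plate 2.

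**Figure D2:**
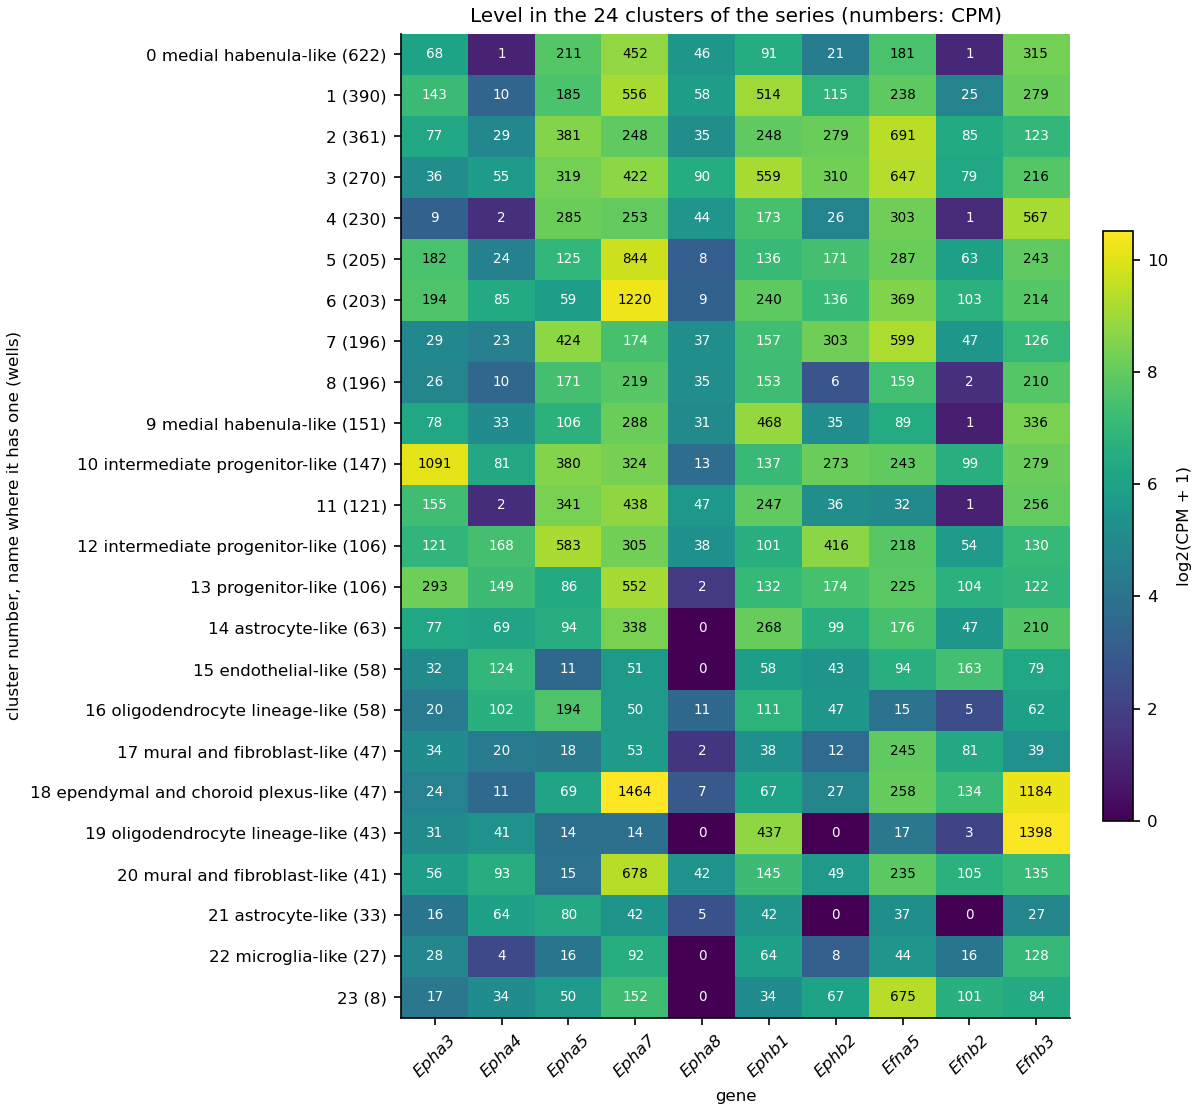
Level of each member in each cluster of the series (rows, clusters with their number of wells and their names where markers gave one; columns, members; colour, log2(CPM + 1), with the CPM written in each cell). Epha3 is highest in intermediate progenitor-like cluster 10 at 1091 CPM, and Efnb3 in oligodendrocyte-like cluster 19 at 1398 CPM.

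Of the steps between neighbouring stages, E18 to P4 had the most called members, as it had the most called genes. There 4 of 10 members passed, 1 up and 3 down, where 19.6% of genes passed, with a median log2 change of -0.54 for the members and -0.07 for all genes. From E13 to E15 (0.0917% of genes called) and from E15 to E18 (0.195%) 0 members passed in edgeR, with 2 at an unadjusted p under 0.05 in each (Epha7 and Epha3, then Epha5 at -1.48 and Epha4 at +1.44), and DESeq2 called 1 in each. Over all 17453 genes 2183 and 3009 had an unadjusted p under 0.05, and DESeq2 called 418 and 632. From P4 to P7 (0.00573% of genes called) 0 passed in edgeR, 0 had an unadjusted p under 0.05 and DESeq2 called 0. From E11 to P7, 5 of 10 passed (28.6% of all genes), 4 down and 1 up, and the median change was -0.76 for members and 0.03 for all genes. From P7 to the adult 2 passed (3.58% of all genes), with medians of -0.72 and -0.02. Neighbouring comparisons share a stage's plates and are not independent.

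The other 12 Eph and ephrin genes were measured on the same 15 plates. Epha6 ranged from 70.7 to 747 CPM, with a median of 295 CPM and 99.3% of its UMIs unspliced. Epha10 went from 3.59 to 76.3 CPM, Ephb6 from 8.74 to 57.1, Efnb1 from 7.91 to 86.9, Efna2 from 6.59 to 75.6, Ephb3 from 2.64 to 42.3, Ephb4 from 0 to 27.6 and Efna3 from 2.00 to 25.8. Epha1, Epha2, Efna1 and Efna4 stayed at or below 2.65, 4.54, 4.85 and 9.81 CPM. From E18 to P4, 6 of the 10 tested passed, where 19.6% of all genes did: Epha10 (+2.78) and Epha6 (+1.84) rose, and Ephb4 (-3.66), Ephb6 (-1.83), Efnb1 (-1.82) and Ephb3 (-1.80) fell. From E11 to E13 (1.45% of all genes) Epha6 fell by 2.90, and from E11 to P7 (28.6% of all genes) Efna4 (-3.61) and Efna2 (-2.55) fell. The Efna4 level at P7 rested on 10 counts and the Ephb4 level at P4 on 14, each over 2 plates, so the sizes of these 2 falls are uncertain. Between Pou4f1-positive and negative wells, described below for the members, Epha6 was higher in positive wells at both ages (+2.31 early and +2.17 late), as was Epha10 (+1.27 and +2.86), and Ephb4, known from venous endothelium, was lower (-2.63 and -4.78). Efna3 was higher late (+2.84).

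Signalling genes downstream of Eph receptors and ephrins, 35 genes in 36 rows, were counted in the same comparisons. From E18 to P4 7 of 36 rows passed (19.6% of all genes), 4 up and 3 down, with Chn2 (-2.63), a Rac-inactivating chimaerin that links to EphA receptors, and Rgs3 (-2.20), a binder of ephrin-B tails, changing most. From E11 to P7 11 passed (28.6% of all genes), 3 up and 8 down, led by Kalrn (-2.84), a guanine exchange factor acting with EphB receptors, and Chn2 (-2.27). From P7 to the adult 1 passed (3.58% of all genes), Fyn (-0.97), a Src-family kinase. In edgeR 0 rows passed from E11 to E13 (7 at an unadjusted p under 0.05, 0 in DESeq2), from E13 to E15 (7 and 1), from E15 to E18 (6 and 0), from P4 to P7 (1 and 0) and between left and right (0 and 0). Over all 17453 genes, 3098, 2183 and 3009 had an unadjusted p under 0.05 in the first 3 of these steps. Between Pou4f1-positive and negative wells 5 of 36 passed early (14.1% of all genes), 4 higher and 1 lower, with Inppl1 (-3.94), a lipid phosphatase, and the kinase Cdk5 (+1.15) changing most. Late 14 of 34 passed (32.4% of all genes), 7 in each direction, led by Inppl1 (-4.46) and the exchange factor Vav3 (+2.40).

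Pou4f1 is expressed by habenular neurons, and kept wells were split by whether they held a Pou4f1 UMI and summed within each plate, 3 plates at E11 and E12 and 4 at P4 and P7. The split rests on 1 gene, and negative wells are few (24, 41 and 30 early, and 23, 31, 30 and 35 late) and shallower: on E11 plate 1 the median well held 16289 counts when positive and 7702 when negative, on P4 plate 2 21844 and 4182. Of the early negative wells 15, 31 and 17 were progenitor- or intermediate progenitor-like, as were 46, 52 and 24 of the early positive wells (16.1%, 17.1% and 9.20%), so the positive side does not hold neurons alone. Of the late negative wells 12, 14, 27 and 16 belonged to named nonneuronal clusters. The part of these cells and depths in the differences was not tested.

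**Figure D3:**
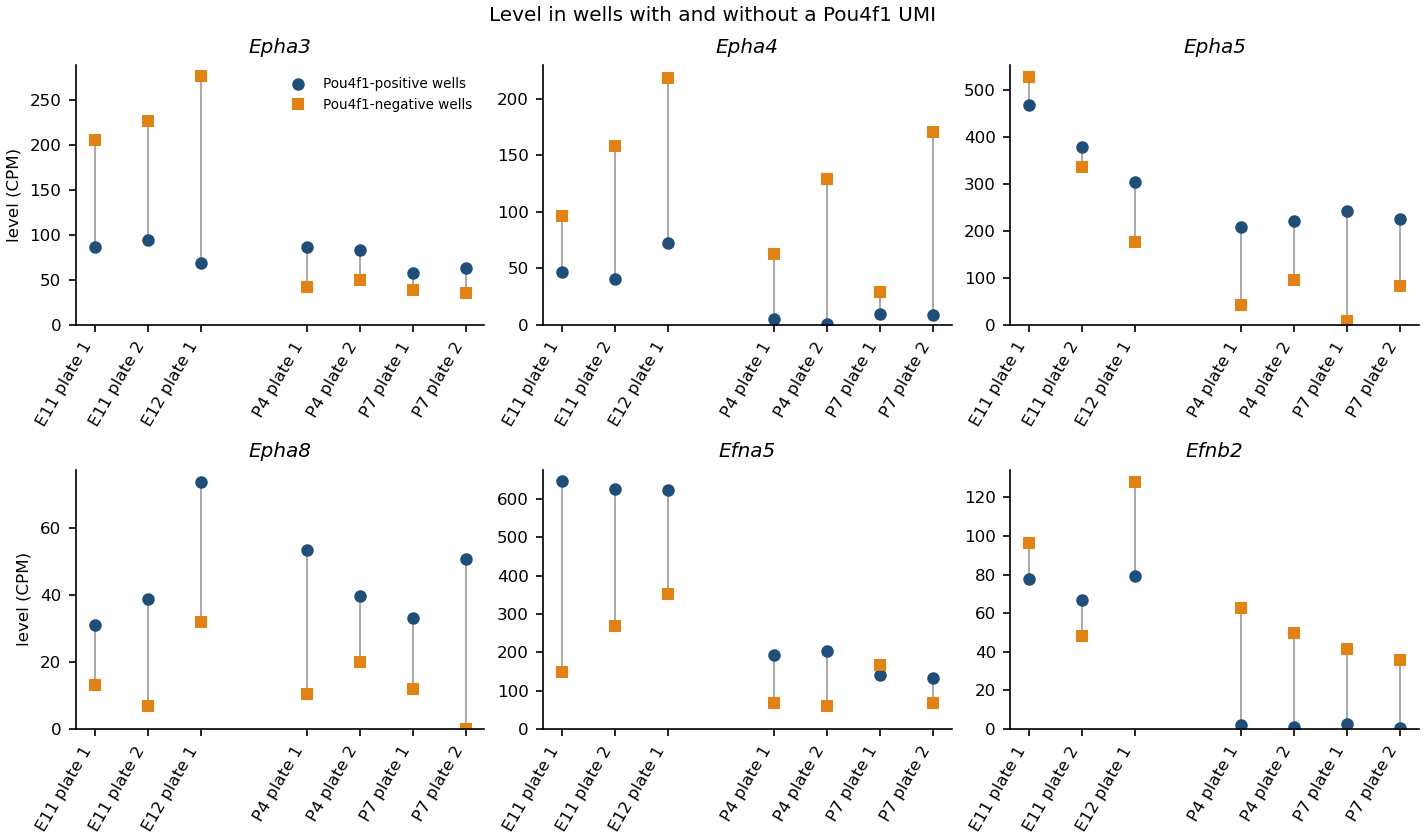
Levels of members in Pou4f1-positive and Pou4f1-negative wells of each plate at E11 and E12 and at P4 and P7 (x axis, plate; y axis, CPM on a linear scale; circles, positive wells; squares, negative wells of the same plate, joined by a line), for the 6 members that passed in either comparison. Epha3 is higher in negative wells early and in positive wells late, and Efnb2 is at 0.736 to 2.43 CPM in positive wells late.

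At E11 and E12 4 members differed, where 14.1% of genes did. Epha3 was lower in positive wells (86.4, 94.9 and 69.2 CPM) than in negative ones (206, 227 and 277), at log2 -1.36 (SE 0.20, edgeR adjusted p = 0.000675). Epha4 was lower too (46.5, 40.9 and 72.2 against 96.2, 158 and 219 CPM), at -1.42 (SE 0.24, edgeR adjusted p = 0.00145). Efna5 was higher in positive wells, at 647, 626 and 622 against 149, 268 and 352 CPM, by 1.49 (SE 0.22, edgeR adjusted p = 0.000561). Epha8 was higher by 1.70 (SE 0.41, edgeR adjusted p = 0.0136), a call lost without any 1 plate (0.0643 to 0.0832) and resting on 3, 2 and 6 counts in negative wells.

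At P4 and P7 6 members differed, where 32.4% of genes did. Efnb2 measured 2.10, 0.949, 2.43 and 0.736 CPM in positive wells and 62.6, 49.9, 41.4 and 35.8 CPM in negative ones. It was lower in positive wells by 4.81 (SE 0.55, edgeR adjusted p = 9.87e-06). Positive and negative wells together held 40 Efnb2 counts at P4 and 45 at P7, so the size of this difference is uncertain. Epha4 was likewise lower in positive wells (4.91, 0.791, 9.98 and 8.47 against 62.6, 129.6, 29.5 and 171 CPM), by 3.91 (SE 0.62, edgeR adjusted p = 0.000179). Epha5 was higher in positive wells (209, 221, 242 and 225 against 41.7, 94.7, 8.86 and 83.5 CPM), by 2.27 (SE 0.37, edgeR adjusted p = 0.000248), and Epha8 by 2.20 (SE 0.51, adjusted p = 0.00355 in edgeR). Efna5 was higher by 1.02 (SE 0.30, edgeR adjusted p = 0.0176), and the call was lost without P4 plate 1, P4 plate 2 or P7 plate 2. Epha3 was higher by 0.92 (SE 0.26, edgeR adjusted p = 0.0133), with 8, 10, 13 and 9 counts in negative wells. Counting spliced transcripts alone, Epha3 measured -0.27 (adjusted p = 0.718 in edgeR), the opposite sign.

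Whether the Pou4f1 difference itself changed between the early and late plates was tested afterwards with an interaction term, in which 6.85% of genes passed. It passed for Efnb2, -4.63 (SE 0.49, edgeR adjusted p = 1.97e-05), Epha3, +2.34 (SE 0.32, adjusted p = 0.000177), Epha5, +1.96 (SE 0.48, adjusted p = 0.0175) and Epha4, -2.41 (SE 0.71, adjusted p = 0.0491). Of these calls, 3 were lost with spliced transcripts only: Epha3 at 1.77 (adjusted p = 0.0593), Epha5 at 1.70 (0.0588) and Epha4 at -2.11 (0.169), all in edgeR. The Epha5 call was also lost without E11 plate 1 (0.089) or E11 plate 2 (0.0683), and the Epha4 call stayed in 1 of 7 fits that each left out a plate.

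Unspliced reads, which carry intron sequence, made up most of the counts of 6 members: 75.5% for Epha3, 56.3% for Epha4, 59.0% for Epha5, 55.0% for Epha7, 55.7% for Ephb1 and 78.9% for Efna5, against 45.8% for Ephb2, 12.0% for Efnb2, 0.732% for Epha8 and 0.0126% for Efnb3. Over all genes the share was 17.7% to 26.4% on the series plates. For Epha5 it was 67.4% on the E11 to E18 plates (60.7% to 79.2% on single plates) and 49.1% on the P4 to adult plates (46.3% to 57.9%), and the plates did not overlap. For Ephb2 the shares were 44.3% (40.9% to 52.5%) and 58.8% (50.0% or more on single plates), which overlap. In gene length, Efnb3 (6.11 kb) and Epha8 (27.4 kb) were the shortest members and the lowest in unspliced share.

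**Figure D4:**
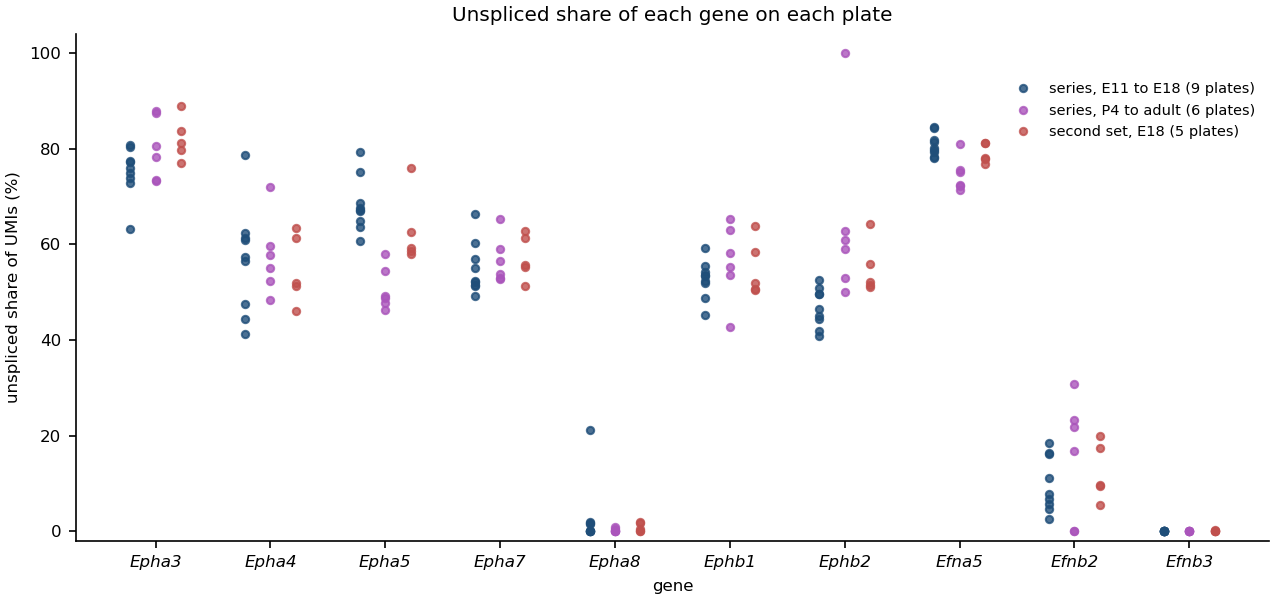
Share of unspliced UMIs of each member on each plate (x axis, member; y axis, percent; points, plates, coloured by embryonic series, postnatal series and C57BL/6 set). Over all series plates Epha3 and Efna5 lie at 75.5% and 78.9%, and Efnb3 and Epha8 at 0.0126% and 0.732%.

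Between left and right habenula at E18 no member passed the test. Of 15489 genes 0% were called by edgeR (182 at an unadjusted p under 0.05), and of the 10 members 0 were under 0.05 unadjusted and DESeq2 called 0. The right-over-left estimates with 95% intervals were Efnb2 +0.13 (-0.60 to 0.87), Epha4 +0.04 (-0.57 to 0.66), Efnb3 +0.04 (-0.42 to 0.50), Epha7 +0.18 (-0.24 to 0.60), Epha8 +0.40 (-0.06 to 0.86), Efna5 +0.03 (-0.45 to 0.51), Ephb2 -0.11 (-0.56 to 0.34), Epha5 -0.15 (-0.60 to 0.31), Ephb1 -0.19 (-0.68 to 0.29) and Epha3 -0.13 (-0.56 to 0.30). Their outermost bounds were -0.68 and 0.87, and a p that misses the threshold does not show equal levels. Epha8 was 45.3 and 37.3 CPM on the left plates and 52.7 and 59.4 CPM on the right. Epha7 was 352 and 422 CPM on the left and 428 and 464 CPM on the right. Neither passed the test, and the share of all genes with right plates above left ones was not counted. Erythroid markers summed to 19048 and 17220.4 CPM on the left plates and 3410.5 and 266 on the right. A fit without the erythroid-like wells, 55 and 2 on the left plates and 1 and 1 on the right, called 0 genes in edgeR. The part of erythroid RNA in other wells was not tested.

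**Figure D5:**
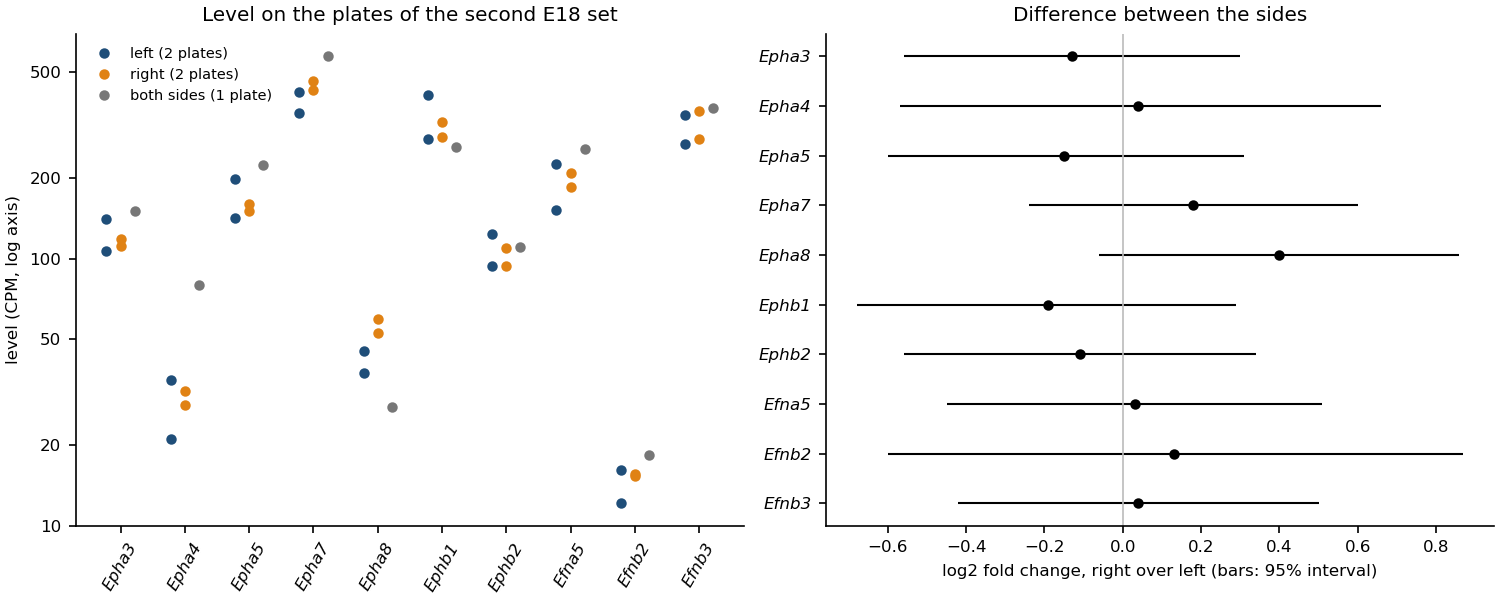
Levels on the plates of the C57BL/6 set (left panel: x axis, member; y axis, CPM on a log scale; 1 point per plate) and right-over-left log2 fold changes (right panel; bars, 95% intervals). All 10 intervals span 0, and no member passed the test.

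For 9 members, likeness of level was taken against all genes whose mean was at least 20 CPM, over the 15 series plates. The most alike in log2(CPM + 1) were Rbmxl1 (Pearson r = 0.934) for Epha3, Kazn (0.906) for Epha4, Pgm2l1 (0.888) for Epha5, Meaf6 (0.910) for Epha8, 2610316D01Rik (0.780) for Ephb1, Acvr2b (0.984) for Ephb2, Apba2 (0.945) for Efna5, Nxn (0.978) for Efnb2 and Cep41 (0.946) for Efnb3. These values describe 15 plates that share depth and cell makeup, and they carry no test.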

How the data were processed

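The authors deposited expected counts per gene and well, UMI counts corrected for UMI collisions, as total, spliced and unspliced tables with no scaling between wells. Reads were aligned with STAR 2.5.3a to mm10, per the submitters' processing notes; no source used here gives the counting program, the annotation or the use of strand. The 92 spike-in rows were left out of library sizes and tests. Kept wells had 1000 or more UMIs (spike-in and mitochondrial ones not counted), 500 or more genes and a mitochondrial share of 20% or less. The planned test assumed whole counts; the deposited expected counts were summed per plate and rounded. Sums were tested with edgeR 4.0.16 (filterByExpr, TMM, glmQLFit, glmQLFTest) under R 4.3.3, Benjamini-Hochberg adjusted over all genes at 0.05, with the plate as replicate and all 14 plates of the 7 stages with 2 plates in 1 fit; left and right used 4 plates, and the Pou4f1 comparisons kept the plate as a block. DESeq2 1.42.0, RLE scaling, no filter, a higher well minimum, spliced transcripts, Pou4f1-positive wells, nonneuronal clusters left out, plates left out and the replicate block were alternatives. Wells were clustered with scanpy 1.11.5 without the member genes, and clusters were named from fixed marker lists; no doublet caller was run. CPM, 95% intervals and shares at 2000 UMIs a well (shallower wells left out) were computed from the deposited values; intervals cover counting error except those of fitted changes. Coordinates are from GENCODE M21. On simulated counts for E11 to P7 the test recovered 13 of 100 changes of 2-fold and 82 of 100 of 4-fold, among 16588 genes. The 200 changed genes were drawn above 20 CPM and changed at P7 alone, and all other genes were equal between stages. In the data 28.6% of genes were called, so these rates need not hold there or at lower levels. The 10 members and the lists of 12 other family genes and 35 signalling genes were named whatever their result, with the signalling genes of largest change named per comparison; members and lists were chosen with earlier results of these data known. Same-numbered stage plates did not as a rule deviate together (correlations of -0.357 to 0.246 over 21 stage pairs, 4 above 0.1). Left and right plates gave 0.233, within that range, from 1 pair of groups. The intervals given for left and right come from the fit without the replicate block. No label says what a shared number marks. The gene most like Epha7 is not reported here.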

Additional observations from a re-analysis of the deposited data

Results flagged for a closer look

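The difference between Pou4f1-positive and Pou4f1-negative wells changed between E11 to E12 and P4 to P7 in 4 of 10 members (6.85% of all genes), by the interaction test in edgeR, which was added after seeing the data. The change, late minus early on the log2 scale, was -4.63 for Efnb2, 2.34 for Epha3, 1.96 for Epha5 and -2.41 for Epha4. Efnb2 measured -0.07 early and -4.81 late, Epha3 -1.36 and 0.92, Epha5 0.34 and 2.27, and Epha4 -1.42 and -3.91. The late Efnb2 value rests on 40 counts at P4 and 45 at P7, so its size is uncertain. With spliced transcripts only, Epha3 was 1.77 (adjusted p = 0.0593 in edgeR), Epha5 1.70 (0.0588) and Epha4 -2.11 (0.169). Without E11 plate 1 or E11 plate 2, Epha5 had adjusted p-values of 0.089 and 0.0683, and Epha4 stayed past the threshold in 1 of 7 fits that each left out a plate. Of the early negative wells 15, 31 and 17 were progenitor- or intermediate progenitor-like, as were 46, 52 and 24 of the early positive ones, and of the late negative wells 12, 14, 27 and 16 belonged to named nonneuronal clusters, whose part was not tested.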

How the results depend on the processing

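Of the members called, numbers moved with the setting where few genes passed. From E11 to E13, 1 member was called in the fit as reported, 2 with DESeq2, 3 without the filter on low counts and 0 with the replicate block, where Epha3 was 1.93 (adjusted p = 0.0574 in edgeR). From E13 to E15 and from E15 to E18 0 were called as reported, 1 and 1 with DESeq2 and 2 and 2 without the filter. From P7 to the adult 2 were called, and 1 each with spliced transcripts only, without the named nonneuronal clusters and with the replicate block; the difference of the Pou4f1 contrast had 4 and, with spliced transcripts only, 1. The replicate block changed no other count of members by over 1.5 times. With 1 plate left out at a time, members called ranged from 6 to 8 over all stages, 0 to 3 from E11 to E13, 0 to 1 from E13 to E15, 0 to 2 from E15 to E18, 2 to 4 from E18 to P4, 0 to 0 from P4 to P7, 0 to 3 from P7 to the adult, 3 to 6 from E11 to P7, 0 to 0 between left and right, 3 to 3 and 5 to 6 for Pou4f1 at E11 and E12 and at P4 and P7, and 2 to 4 for their difference. The Epha3 value at P4 and P7 was -0.27 with spliced transcripts only, the opposite of 0.92; the cause was not tested. All-gene calls rose from 253 to 903 (DESeq2) and 1715 (no filter) from E11 to E13, from 16 to 418 and 1249 from E13 to E15, from 34 to 632 and 1461 from E15 to E18, from 1 to 15 and 136 from P4 to P7, and from 625 to 1401 and 1766 from P7 to the adult; left against right went from 0 to 1 and 37, and to 6 with the replicate block. They fell to 4 from E13 to E15 with spliced transcripts only and with the replicate block, and to 8 without the nonneuronal clusters; from E15 to E18 to 4, 16 and 6. With 1 plate left out, all-gene calls ranged from 28 to 1078 from E11 to E13, 1 to 350 from E13 to E15, 4 to 2100 from E15 to E18, 574 to 5695 from E18 to P4, 27 to 1572 from P7 to the adult, 2107 to 6580 from E11 to P7, 18 to 39 between left and right, 651 to 1422 for Pou4f1 at E11 and E12 and 526 to 776 (854 with all plates) for the difference of the Pou4f1 contrast, so the shares of all genes called depend on single plates. Of the 34 member tests called, 519 alternatives left the call as it was, 70 lost it in the same direction and 1 lost it with the opposite sign. Adult plate 1, with 758697 counts, was the shallowest plate behind the P7 to adult comparison.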
